A study of Homo sapiens with 6 samples.

Results

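The 34 genes described here are targets of the hypoxia-inducible factors (HIF), a list of named genes matched by symbol to a count table of 19402 genes. All 34 were found and all 34 were counted deeply enough to be tested, among 13388 tested genes in all. RNA was sequenced from 6 libraries of CFPAC1, an established human pancreatic ductal adenocarcinoma cell line. The 3 WT libraries came from pools of clones isolated by dilution from cells infected with the lentiCRIPSv2 plasmid. The 3 IRF1-KO libraries came from pools of clones isolated in the same way after infection with that plasmid carrying wt Cas9 and a guide RNA that targets IRF1, the interferon-induced transcription factor. All pools were grown in serum-supplemented IMDM medium. No oxygen level is given in the labels and no sample is labelled as hypoxic. The study's title names metabolism in low-grade pancreatic cancer cells as its subject. The comparison here asks how expression of HIF targets compared between IRF1-KO and WT pools, and nothing in the labels says that the pools of a group were grown on separate occasions.

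HIF is a pair of transcription factor subunits. Its alpha subunit, made by HIF1A or EPAS1, is hydroxylated by oxygen-dependent enzymes and then marked by the VHL ubiquitin ligase for destruction. When oxygen is low the alpha subunit persists, pairs with ARNT and binds short DNA elements near genes of glucose uptake, glycolysis, angiogenesis, pH control, collagen processing and mitochondrial clearance. Pancreatic ductal adenocarcinoma is known for poorly perfused, hypoxic tissue, and the same genes can be expressed at a basal level in culture.

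Total counts per library ranged from 16413682 to 28258075. Counts of IRF1 itself did not drop in libraries carrying the IRF1-KO label, at 87.3, 91.3 and 82.6 CPM across WT replicates 1, 2 and 3, against 117, 123 and 132 CPM across the same numbers of IRF1-KO, with a log2 fold change of 0.51 ± 0.10 and an adjusted p of 0.135 with edgeR's quasi-likelihood test and 0.00105 with DESeq2. A count over all exons does not check a small Cas9 edit, so WT and IRF1-KO are used as the labels give them and every direction below rests on them. Of 9 ductal epithelial markers, 8 reached at least 1 CPM (counts scaled to library size) in some library, with CFTR the exception. Summed over the 9 markers the level was 4438 to 7580 CPM in WT and 5047 to 6957 CPM in IRF1-KO, mostly KRT8, KRT18 and KRT19. Single markers moved either way. MUC1 had 396, 532 and 131 CPM over the WT pools, against 88.3, 197 and 167 CPM over the IRF1-KO pools (log2 fold change −1.22 ± 0.53). For KRT7 these were 508, 480 and 157 CPM, against 316, 777 and 336 CPM (0.32 ± 0.52). No acinar or islet marker reached 1 CPM, and CPA1, PNLIP, INS and SST were at 0 in every library. Of the leukocyte markers, LYZ had 28.8, 75.0 and 25.6 CPM over the WT pools, against 13.4, 22.5 and 24.5 CPM over the IRF1-KO pools. CD14 had the opposite sign, with 0.328, 0.925 and 2.31 CPM over the WT pools, against 1.89, 1.75 and 1.99 CPM over the IRF1-KO pools, while PTPRC, CD3E and CSF1R stayed under 1 CPM and TYROBP was at 0. Fibroblast markers summed to 32.4 to 50.04 CPM in WT and 35.2 to 76.4 CPM in IRF1-KO, mostly COL1A1, with COL3A1, DCN and PDGFRB under 1 CPM. Endothelial markers summed to 5.36 to 7.40 CPM in WT and 7.16 to 8.35 CPM in IRF1-KO, mostly KDR, with CDH5 and VWF under 1 CPM. The part of these differences in the results was not tested. The libraries also differed by transcript GC content along the group labels: the 477 tested genes over 65% GC had median deviations between −0.59 (replicate 1) and −0.095 log2 CPM in the WT libraries and between 0.097 and 0.46 in the IRF1-KO libraries. GC content of the HIF target genes ran from 36.9% to 63.3%, so values after a correction for GC content are given where they moved a result.

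Most HIF target genes were slightly lower in the IRF1-KO libraries, and no single gene passed the test over all genes. Of the 34, 29 had a negative log2 fold change, as did 53.3% of all tested genes. Their median log2 fold change was −0.28, against −0.018 over all tested genes, and 30 of the 34 lay between −0.5 and 0.5. None was past an adjusted p of 0.05 with edgeR's quasi-likelihood test, a threshold passed by 0.127% of tested genes. DESeq2 called 1 of the 34, NDRG1, and 2.48% of all tested genes. At an unadjusted p under 0.05, 7 of the 34 (20.6%) were lower with edgeR, namely NDRG1, HK2, EGLN1, AK4, EGLN3, PDK1 and BNIP3, and none was higher. In these bulk libraries fewer expressing cells and less RNA per cell cannot be told apart. Over all tested genes 3.75% were lower and 5.39% were higher at that p. The count rested on single libraries. It was 2 of 34 (5.88%, against 4.28% of all tested genes) without WT replicate 1, 5 (14.7%, against 2.23%) without WT replicate 2 and 9 (26.5%, against 4.94%) without WT replicate 3. Without IRF1-KO replicates 1, 2 and 3 in turn it was 5 (14.7%, against 2.7%), 3 (8.82%, against 3.39%) and 4 (11.8%, against 2.73%). At the same p DESeq2 gave 9 lower genes, against 4.12% of all tested genes. With a correction for GC content 5 were lower, against 3.53% of all tested genes, and the median was −0.23. The median stayed between −0.32 and −0.24 as each library was left out. NDRG1 and HK2 were the members in the count under every one of these 6 omissions.

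**Figure D1:**
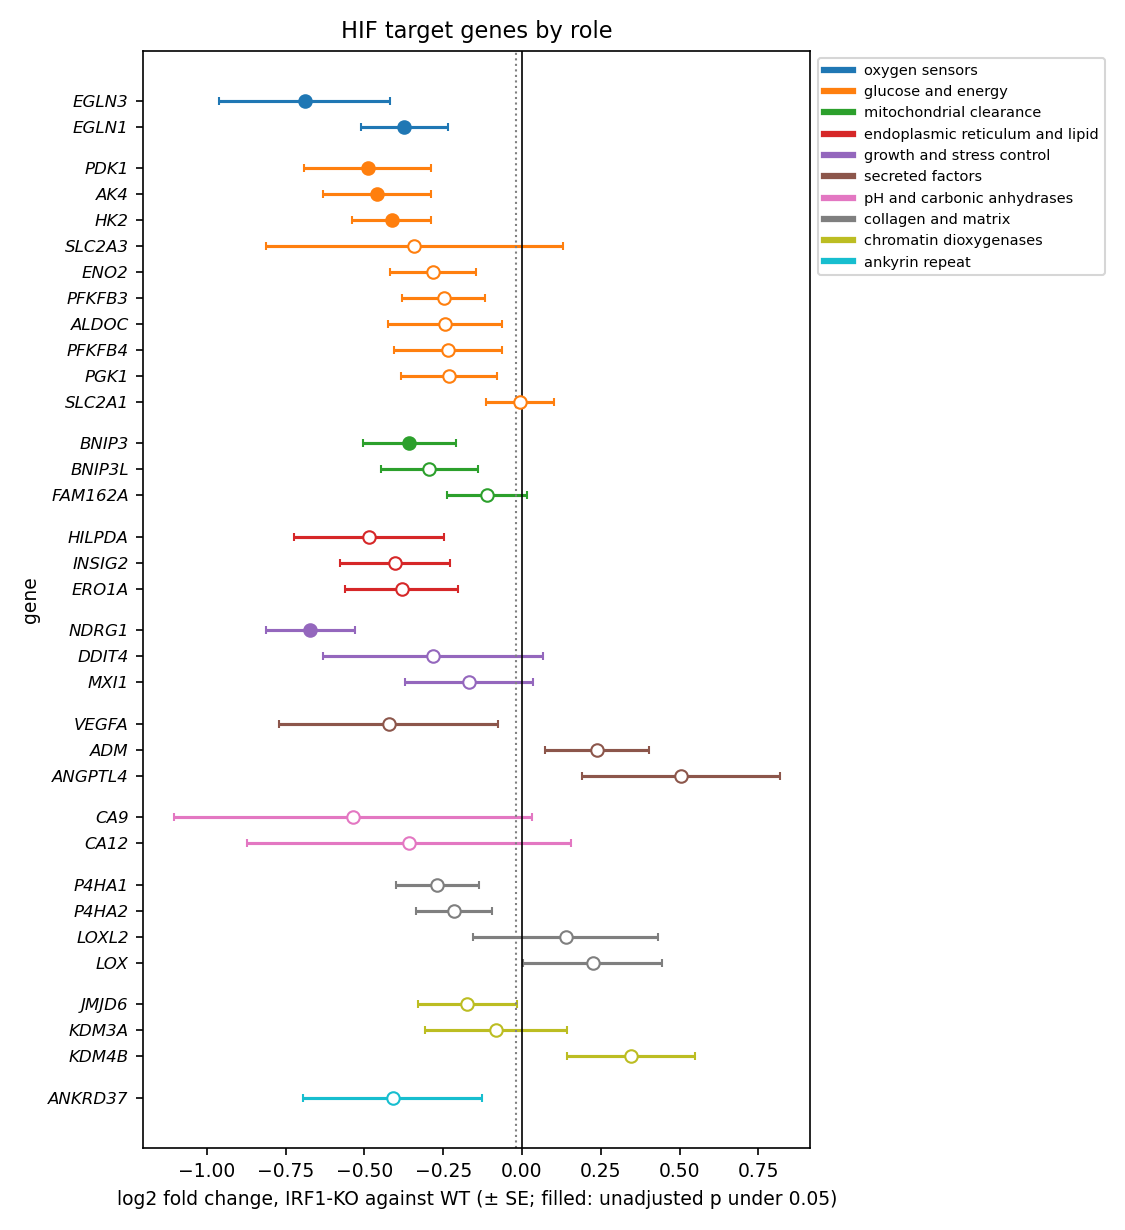
Log2 fold change of each of the 34 HIF target genes, IRF1-KO against WT (x axis; bars are standard errors, filled points have an unadjusted p under 0.05, the dotted line is the median of all tested genes), grouped and coloured by role. The 7 filled points all lie left of 0, and all 10 genes of glucose and energy have negative values, with SLC2A1 at −0.0075 ± 0.11.

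**Figure D2:**
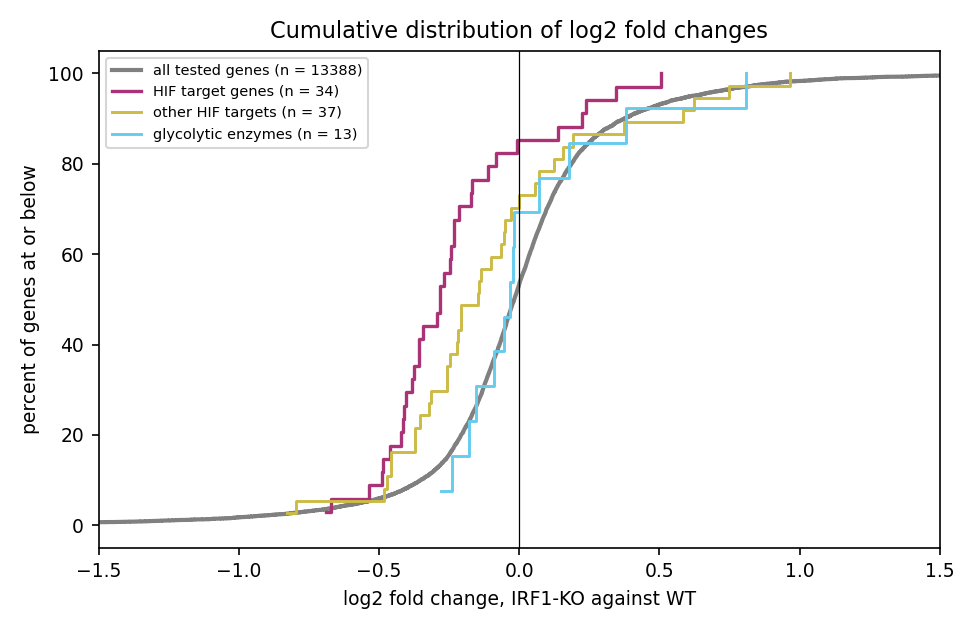
Cumulative percent of genes (y axis) at or below each log2 fold change (x axis) for HIF target genes, other hypoxia-induced genes, glycolytic enzymes and all tested genes. The curve of the 34 HIF target genes lies to the left of the others around its median of −0.28, while the glycolytic enzymes have a median of −0.034.

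Library by library, the median deviation of the 34 genes from their own means over the 6 libraries was 0.21, 0.13 and 0.011 log2 CPM for WT replicates 1, 2 and 3, against −0.12, −0.087 and −0.16 for those of IRF1-KO. Every WT library thus had a higher median than every IRF1-KO library, but WT replicate 3 lay nearer to the IRF1-KO libraries than WT replicate 1 did. WT replicate 1 held the highest value of the 6 libraries for 15 of the 34 genes and IRF1-KO replicate 3 held the lowest for 12. All IRF1-KO values lay below all WT values for 6 genes (17.6%), NDRG1, HK2, EGLN1, AK4, ENO2 and ANKRD37, against 6.75% of all tested genes. They lay above them for 2 genes, ADM and ANGPTL4, against 8.03% of all tested genes.

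**Figure D3:**
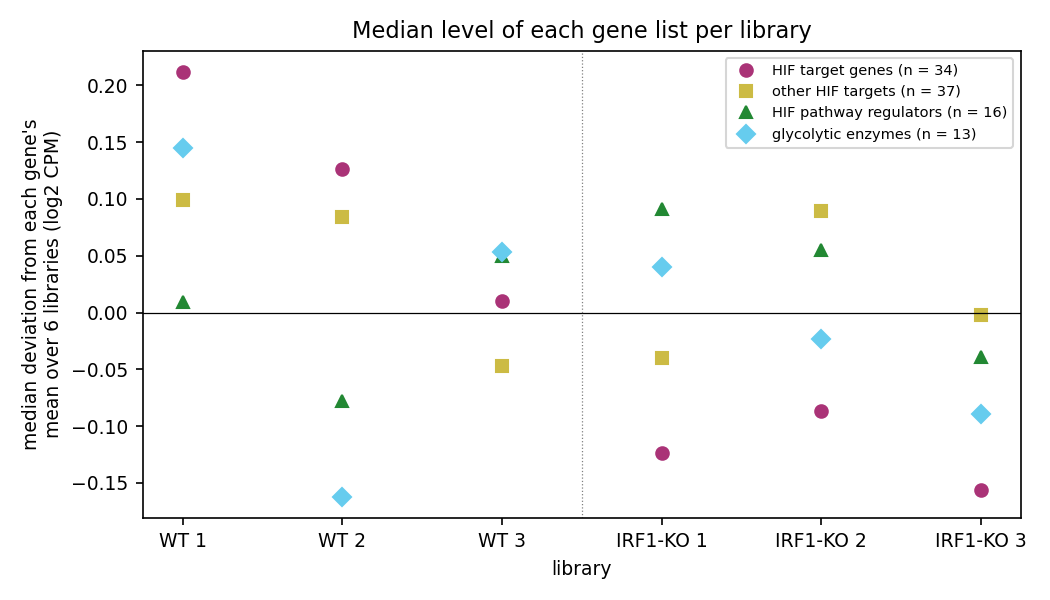
Median deviation of each gene list from its genes' means over the 6 libraries (y axis, log2 CPM) in each library (x axis). The HIF target genes run from 0.21 in WT replicate 1 to −0.16 in IRF1-KO replicate 3, while the regulators of HIF lie between −0.078 and 0.091 with no separation of the groups.

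The DNA element that HIF binds has the core letters ACGTG or GCGTG. Stretches that hold it are shown as a description of the promoters. The genes were listed as HIF targets, so a high share of the element among them is no separate support for the list. RefSeq promoter windows (GRCh38.p14) were found for 27 of the 34 genes, 39 windows in all (VEGFA, NDRG1, BNIP3L, LOXL2, SLC2A3, HILPDA and JMJD6 had none), and were searched on both strands over the 250 bases before each start. The letters ACGTG were in 24 of the 39 windows (61.5%), against 21.9% of 15921 windows of tested genes and 18.5% of all 35116 windows. GCGTG was in 24 windows as well (61.5%), against 42.5% and 32.2%. Matches of the 2 motifs can share bases, and 33 windows (84.6%) held at least 1 of them, against 54.0% of windows of tested genes. These shares count windows and not genes, and AK4 had 4 windows and LOX and MXI1 3 each. The stretches below are those nearest a start, 5′ to 3′ on the strand of the gene. Capitals mark ACGTG or its reverse complement CACGT, only in the copy nearest the start. The PDK1 stretch holds another CACGT in lower case. They were picked for their fold changes: the first 8 are among the members with the smallest p and a negative log2 fold change, and the last 2 have a positive one.
HK2: aatgggcgtgcgCACGTcactgatccgga
EGLN1: gggccgtggtgtACGTGcagagcgc
AK4: gtcgcagggagcACGTGggccaggcaggc
PDK1: cgccacgtccctCACGTacc
BNIP3: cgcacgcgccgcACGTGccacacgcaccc
INSIG2: ggctcgcaggtcCACGTcttattgacagc
ERO1A: cgggcgccgcggCACGTccacaggctggg
ENO2: acccgcgctcgtACGTGcgcctccgccgg
ANGPTL4: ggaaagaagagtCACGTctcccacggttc
LOX: gtaactttgcaaACGTGccagaaagttta
The HK2 stretch is at chr2:74834067-74834095, plus strand, that of EGLN1 at chr1:231422288-231422312, minus strand, and that of ENO2 at chr12:6914450-6914478, plus strand. The AK4 stretch lies at chr1:65147448-65147476, plus strand, PDK1 at chr2:172556070-172556089, plus strand, BNIP3 at chr10:131982040-131982068, minus strand, INSIG2 at chr2:118088364-118088392, plus strand and ERO1A at chr14:52695656-52695684, minus strand. The remaining stretches are at chr19:8363909-8363937, plus strand (ANGPTL4), and at chr5:122078285-122078313, minus strand (LOX). In EGLN1 8 bases separate the motif from the start, and in PDK1 3 bases do. The 20 genes with ACGTG in a window had log2 fold changes with a median of −0.28, and the 7 with a window but without it had −0.22. The 7 genes without any window had a median of −0.34. EGLN3, with a log2 fold change of −0.69, had 1 window that held neither motif. A link between the motif and the fold changes was not tested. The letters are a description and not a measured binding site.

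Oxygen sensors are the HIF prolyl hydroxylases, which mark the alpha subunit for destruction and are themselves HIF targets. EGLN1, the main oxygen sensor of the family (ENSG00000135766.8; minus strand of chromosome 1 in GRCh38, from 231363751 to 231425044), had 104, 102 and 105 CPM across WT replicates 1, 2 and 3, against 95.9, 76.5 and 68.1 CPM across the same numbers of IRF1-KO. The 3 WT libraries were within a few CPM of each other, and each IRF1-KO library was lower. The log2 fold change was −0.37 ± 0.14 (SE), a 1.30-fold lower level, with an adjusted p of 0.458 (edgeR quasi-likelihood). EGLN3, the inducible member (ENSG00000129521.13; minus strand of chromosome 14 in GRCh38, from 33924231 to 34462774), had 45.7, 37.3 and 20.3 CPM across WT replicates 1, 2 and 3, against 21.0, 20.4 and 22.6 CPM across the same numbers of IRF1-KO. WT replicate 3 was as low as the IRF1-KO libraries, so the difference lay in the other 2 WT libraries. Its log2 fold change was −0.69 ± 0.27 (adjusted p = 0.509, edgeR quasi-likelihood), and it ranged from −0.94 to −0.41 as single libraries were left out.

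Genes of glucose uptake and energy metabolism numbered 10, all of negative sign, as were 53.3% of all tested genes. Their log2 fold changes had a median of −0.26. At an unadjusted p under 0.05 with edgeR, 3 of the genes were lower (30.0%, against 3.75% of all tested genes). HK2, the inducible hexokinase that traps glucose in the cell (ENSG00000159399.9; plus strand of chromosome 2 in GRCh38, from 74833981 to 74893359), had 193, 183 and 165 CPM across WT replicates 1, 2 and 3, against 142, 117 and 147 CPM across the same numbers of IRF1-KO. The groups did not overlap. The mean level was 180.4 ± 14.0 CPM over WT pools against 135 ± 15.99 CPM over IRF1-KO pools (mean ± SD, n = 3 each), a log2 fold change of −0.41 ± 0.12 (SE) and an adjusted p of 0.328 with edgeR quasi-likelihood. AK4, a mitochondrial adenylate kinase (ENSG00000162433.15; plus strand of chromosome 1 in GRCh38, from 65147549 to 65232145), had 142, 107 and 120.3 CPM over the WT pools, against 105, 92.4 and 71.2 CPM over the IRF1-KO pools. Every IRF1-KO library was below every WT library, the highest IRF1-KO library only narrowly, and the log2 fold change was −0.46 ± 0.17 (adjusted p = 0.464, edgeR quasi-likelihood). PDK1, the kinase that shuts pyruvate out of the mitochondrion by inhibiting pyruvate dehydrogenase (ENSG00000152256.13; plus strand of chromosome 2 in GRCh38, from 172555373 to 172608669), had 60.4, 49.3 and 44.1 CPM over the WT pools, against 37.9, 27.3 and 44.4 CPM over the IRF1-KO pools. IRF1-KO replicate 3 lay at the level of WT replicate 3, and the log2 fold change was −0.49 ± 0.20 (adjusted p = 0.523, edgeR quasi-likelihood).

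Among the other glucose genes, ENO2, the neuronal-type enolase, was separated between groups by a small step, with 78.3, 75.3 and 101 CPM over the WT pools, against 67.5, 73.5 and 68.8 CPM over the IRF1-KO pools and a log2 fold change of −0.28 ± 0.14 (adjusted p = 0.613, edgeR quasi-likelihood). PFKFB3, which makes the activator of phosphofructokinase, had 420.4, 455 and 491 CPM over the WT pools, against 427, 394 and 329 CPM over the IRF1-KO pools. Its log2 fold change was −0.25 ± 0.13 (adjusted p = 0.650, edgeR quasi-likelihood), and IRF1-KO replicate 1 lay within the WT range. Its relative PFKFB4, at 22.9 ± 4.28 CPM over WT pools against 19.5 ± 1.94 CPM over IRF1-KO pools (mean ± SD), had a log2 fold change of −0.23 ± 0.17. PGK1, the ATP-producing phosphoglycerate kinase, had a log2 fold change of −0.23 ± 0.15. WT replicate 1 alone stood high, at 1918, 1358 and 1385 CPM over the WT pools, against 1335, 1249 and 1385 CPM over the IRF1-KO pools, and without that library the value was −0.033. ALDOC, the brain-type aldolase, averaged 24.8 ± 5.22 CPM over WT pools against 20.9 ± 2.42 CPM over IRF1-KO pools, with a log2 fold change of −0.24 ± 0.18, or −0.048 without WT replicate 1. SLC2A1, the main basal glucose transporter, had the log2 fold change nearest 0 of the 34. It had 603, 526 and 535 CPM over the WT pools, against 534, 587 and 534 CPM over the IRF1-KO pools, a log2 fold change of −0.0075 ± 0.11 whose sign depended on the scaling, at 0.031 with upper-quartile factors and 0.06 after the GC correction. SLC2A3, another glucose transporter, was hardly expressed, with 41, 40 and 34 counts over the WT pools and 43, 21 and 40 over the IRF1-KO pools, a log2 fold change of −0.34 ± 0.47, and reads that can be shared with the near-identical SLC2A14. PGK1 and AK4 have processed copies in the genome, and their values are uncertain to the extent that reads were shared.

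**Figure D4:**
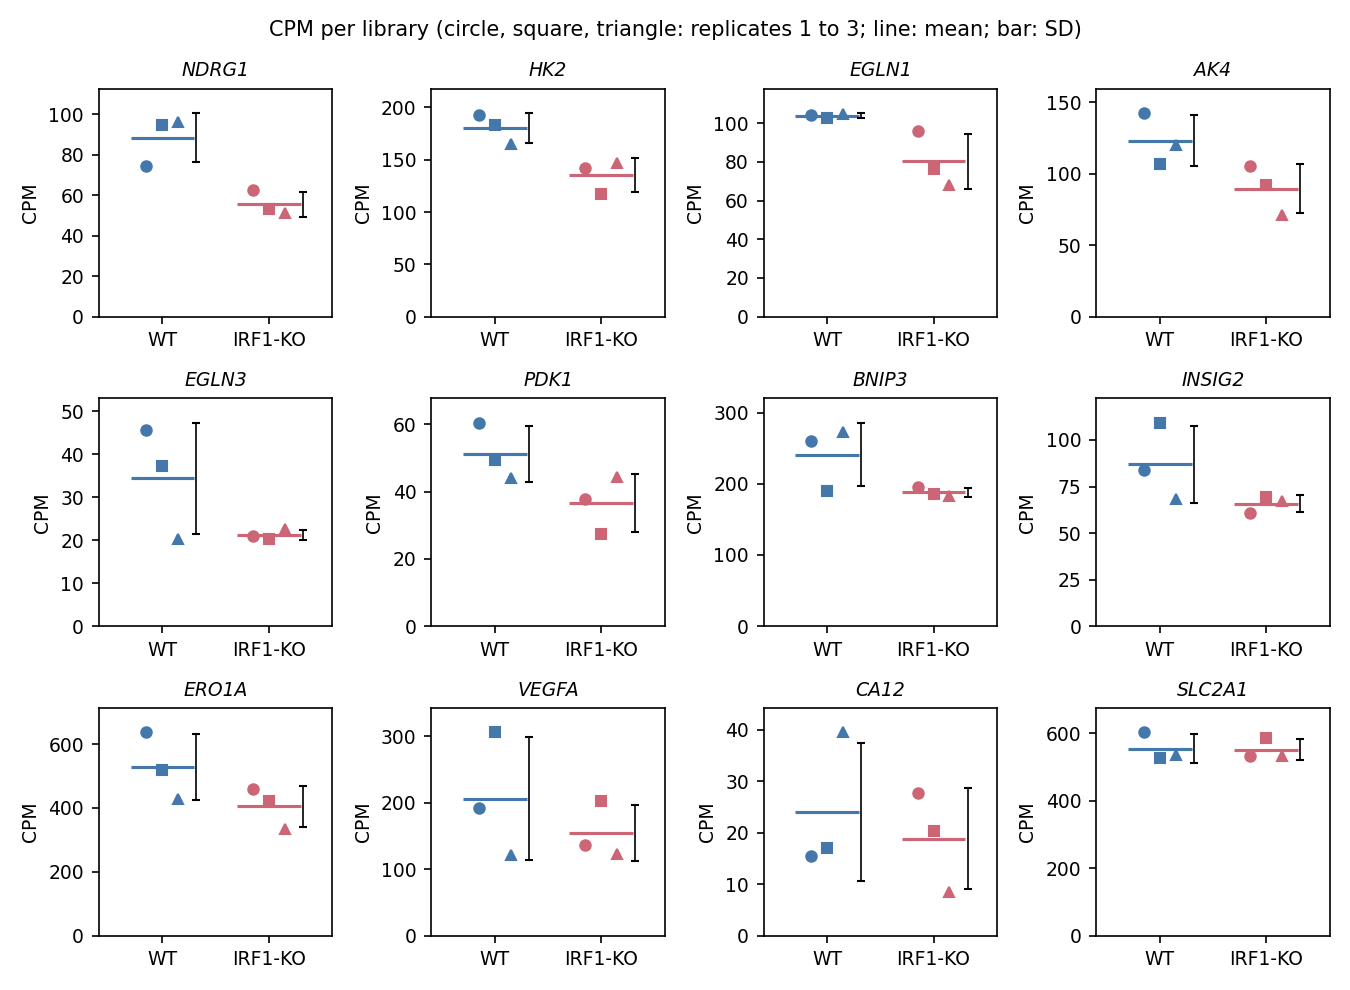
CPM per library (y axes from 0) of 12 HIF target genes in WT and IRF1-KO libraries (x axes; symbols are replicates 1 to 3, lines are means, bars are SD). NDRG1, HK2, EGLN1 and AK4 do not overlap between groups, EGLN3 overlaps through WT replicate 3, and VEGFA and CA12 spread as widely within a group as between groups.

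NDRG1, a stress- and hypoxia-induced gene of growth arrest and differentiation, had the smallest p of the 34. It had 74.4, 94.5 and 96.2 CPM across WT replicates 1, 2 and 3, against 62.6, 53.0 and 51.0 CPM across the same numbers of IRF1-KO, and all IRF1-KO libraries lay below all WT libraries. The level was 88.4 ± 12.1 CPM over WT pools against 55.5 ± 6.16 CPM over IRF1-KO pools (mean ± SD, n = 3 each), 1.59-fold lower, with a log2 fold change of −0.67 ± 0.14 (SE). The adjusted p was 0.158 with edgeR quasi-likelihood and 0.00347 with DESeq2, and it ranged from 0.00347 to 0.491 over 15 alternatives. Of these only DESeq2 took it past the threshold. With a correction for GC content its log2 fold change was −0.66. DDIT4, an inhibitor of the growth kinase mTOR, had 157, 128 and 85.3 CPM over the WT pools, against 95.0, 148 and 60.8 CPM over the IRF1-KO pools. IRF1-KO replicates 1 and 2 lay within the WT range, and the log2 fold change of −0.28 ± 0.35 was smaller than its standard error. MXI1, an antagonist of MYC, averaged 26.2 ± 6.39 CPM over WT pools against 23.3 ± 3.61 CPM over IRF1-KO pools, with a log2 fold change of −0.17 ± 0.20, or 0.04 without WT replicate 2.

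The 3 genes of mitochondrial clearance all had negative log2 fold changes, as did 53.3% of all tested genes. At an unadjusted p under 0.05 with edgeR, 1 (BNIP3) was lower, against 3.75% of all tested genes. BNIP3, a receptor for mitophagy (ENSG00000176171.11; minus strand of chromosome 10 in GRCh38, from 131966455 to 131982013), had 260.4, 190.2 and 273 CPM across WT replicates 1, 2 and 3, against 195, 186 and 183 CPM across the same numbers of IRF1-KO. The 3 IRF1-KO libraries lay close together, as low as WT replicate 2, while the other 2 WT libraries were higher. Its log2 fold change was −0.36 ± 0.15 (adjusted p = 0.531, edgeR quasi-likelihood), and the GC correction brought it to −0.29. The related receptor BNIP3L had 156, 126 and 111 CPM over the WT pools, against 115, 113 and 93.1 CPM over the IRF1-KO pools and a log2 fold change of −0.29 ± 0.15 (adjusted p = 0.646, edgeR quasi-likelihood). WT replicate 3 lay below the 2 higher IRF1-KO libraries. FAM162A, a mitochondrial protein induced by hypoxia, averaged 79.0 ± 8.999 CPM over WT pools against 73.1 ± 7.09 CPM over IRF1-KO pools, with a log2 fold change of −0.11 ± 0.13, or 0.0074 without WT replicate 1.

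The 3 members tied to the endoplasmic reticulum and lipid had negative log2 fold changes, but all overlapped between groups. None reached an unadjusted p under 0.05 with edgeR, while 3.75% of all tested genes were lower at that p. ERO1A, the oxidase that drives disulfide formation in secreted proteins, had 637, 519.9 and 429 CPM over the WT pools, against 459.7, 423 and 334 CPM over the IRF1-KO pools. IRF1-KO replicate 1 exceeded WT replicate 3, and the log2 fold change was −0.38 ± 0.18 (adjusted p = 0.594, edgeR quasi-likelihood). INSIG2, which retains the sterol sensor SCAP in the endoplasmic reticulum, had 83.6, 109 and 68.3 CPM over the WT pools, against 60.6, 69.5 and 67.3 CPM over the IRF1-KO pools, with WT replicate 2 highest and WT replicate 3 within the IRF1-KO range. Its log2 fold change was −0.40 ± 0.17 (adjusted p = 0.552, edgeR quasi-likelihood), and without WT replicate 2 it was −0.21. HILPDA, an inhibitor of lipid droplet lipolysis, had 15.7, 14.3 and 8.99 CPM over the WT pools, against 7.99, 9.63 and 10.1 CPM over the IRF1-KO pools. Here WT replicate 3 again lay with the IRF1-KO libraries, and the log2 fold change was −0.48 ± 0.24 (adjusted p = 0.616, edgeR quasi-likelihood).

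Collagen and matrix enzymes had values of both signs. P4HA1, a catalytic subunit of the collagen prolyl hydroxylase, had 179, 166 and 146 CPM over the WT pools, against 154, 134 and 119.7 CPM over the IRF1-KO pools and a log2 fold change of −0.27 ± 0.13 (adjusted p = 0.617, edgeR quasi-likelihood). Its relative P4HA2 had 81.8, 71.1 and 76.4 CPM over the WT pools, against 58.9, 73.2 and 65.2 CPM over the IRF1-KO pools, a log2 fold change of −0.22 ± 0.12 (adjusted p = 0.674, edgeR quasi-likelihood). In both genes 1 IRF1-KO library overlapped the WT range. The cross-linking enzymes LOX and LOXL2 had positive log2 fold changes of 0.22 ± 0.22 and 0.14 ± 0.29, each smaller than or about equal to its standard error. LOX averaged 14.97 ± 3.37 CPM over WT pools against 17.5 ± 3.51 CPM over IRF1-KO pools. LOXL2 changed sign to −0.04 without IRF1-KO replicate 1. LOXL2 had 59.7, 57.2 and 87.7 CPM over the WT pools, against 94.6, 85.7 and 45.3 CPM over the IRF1-KO pools, so the highest and the lowest library were both IRF1-KO.

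Secreted factors were divided. VEGFA, the angiogenic growth factor, had 192, 306 and 121 CPM across WT replicates 1, 2 and 3, against 137, 202 and 123 CPM across the same numbers of IRF1-KO. Its WT libraries spanned a wider range than the group means were apart, and the log2 fold change was −0.42 ± 0.35 (adjusted p = 0.797, edgeR quasi-likelihood), or −0.025 without WT replicate 2. The vasodilator peptide ADM and ANGPTL4, an inhibitor of lipoprotein lipase, had all IRF1-KO values above all WT values. ADM had 12.1, 12.3 and 9.71 CPM over the WT pools, against 12.6, 14.6 and 13.0 CPM over the IRF1-KO pools (log2 fold change 0.24 ± 0.16, adjusted p = 0.760, edgeR quasi-likelihood). ANGPTL4 had 1.59, 3.05 and 2.79 CPM over the WT pools, against 3.35, 3.63 and 3.56 CPM over the IRF1-KO pools (log2 fold change 0.51 ± 0.31, adjusted p = 0.718, edgeR quasi-likelihood), from 29, 56 and 58 counts over the WT pools and 55, 104 and 95 over the IRF1-KO pools. ANGPTL4 is the most GC-rich of the 34, at 63.3% GC, and the correction for GC content brought it to 0.27.

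CA9, the cell-surface carbonic anhydrase often used as a marker of hypoxic tumour cells, was near the limit of what could be tested. It had 21, 20 and 35 counts over the WT pools and 10, 48 and 10 over the IRF1-KO pools, and IRF1-KO replicate 2 was the highest by CPM together with WT replicate 3. The log2 fold change of −0.54 ± 0.57 ranged from −1.43 to −0.16 as libraries were left out. CA12, a second membrane carbonic anhydrase, had 15.5, 17.1 and 39.5 CPM across WT replicates 1, 2 and 3, against 27.7, 20.4 and 8.43 CPM across the same numbers of IRF1-KO. WT replicate 3 was the highest and IRF1-KO replicate 3 the lowest, and without WT replicate 3 the log2 fold change turned from −0.36 ± 0.51 to 0.22. Of CA9's exonic bases, 581 of 1608 are shared with ARHGEF39 on the opposite strand, so its few counts are uncertain.

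The chromatin and RNA dioxygenases and ANKRD37 make up the rest. KDM3A, a histone demethylase, had 55.8, 60.8 and 58.8 CPM over the WT pools, against 49.3, 40.1 and 76.3 CPM over the IRF1-KO pools. IRF1-KO replicate 3 was the highest and IRF1-KO replicate 2 the lowest of all libraries, and the log2 fold change was −0.082 ± 0.22. KDM4B, also a histone demethylase, had a log2 fold change of 0.35 ± 0.20 (adjusted p = 0.692, edgeR quasi-likelihood), with 10.7, 15.6 and 12.4 CPM over the WT pools, against 13.3, 18.9 and 17.0 CPM over the IRF1-KO pools. At 61.2% GC it was brought to 0.22 by the GC correction. JMJD6, a lysyl hydroxylase, averaged 21.7 ± 2.58 CPM over WT pools against 19.3 ± 2.55 CPM over IRF1-KO pools, with a log2 fold change of −0.17 ± 0.16. ANKRD37, an ankyrin repeat gene used in hypoxia signatures, was lower by CPM in every IRF1-KO library, though only narrowly for replicates 2 and 3. It had 2.68, 2.83 and 2.26 CPM over the WT pools, against 1.59, 2.13 and 2.10 CPM over the IRF1-KO pools. These values rested on few reads, 49, 52 and 47 counts over the WT pools and 26, 61 and 56 over the IRF1-KO pools. Its log2 fold change was −0.41 ± 0.28 (adjusted p = 0.757, edgeR quasi-likelihood), and 909 of its 2253 exonic bases are shared with UFSP2 on the opposite strand. Smaller overlaps with a neighbour's exons were 330 bases in BNIP3L, 298 in PFKFB4, 138 in LOX, 120 in LOXL2 and 3 in FAM162A.

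Levels and spread differed widely among the 34 genes. Per kilobase of exon, mean WT levels were highest for PGK1 at 291 CPM per kilobase, followed by SLC2A1 at 117, PFKFB3 at 74.5, ERO1A at 70.0 and DDIT4 at 60.0. They were lowest for SLC2A3 at 0.332, CA9 at 0.812, KDM4B at 0.877 and ANGPTL4 at 0.999 CPM per kilobase. The neighbouring values of PFKFB3, ERO1A and DDIT4 do not differ beyond the spread of their libraries. The within-group SD of log2 CPM was largest for CA12 (0.82), CA9 (0.73), SLC2A3 (0.63), DDIT4 (0.55) and VEGFA (0.54) and smallest for SLC2A1 (0.094). Its median was 0.246 over the 34 genes and 0.213 over all tested genes. Libraries of the same size were simulated with each gene drawn on its own at its estimated spread. The draws held no GC difference between libraries, so their false calls need not match those in the real data. Of the genes given a 1.5-fold change edgeR called 16%, and of those given a 2-fold change 60%, with 15 false calls among 13275 genes. DESeq2 called 36% and 74% of them, with 44 false calls. The changed genes were drawn from those with a mean over 5 CPM, so these rates do not cover CA9, ANKRD37, ANGPTL4 and SLC2A3. Most of the 34 differed by less than 1.5-fold.

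The regulators of HIF had values of both signs. Of 17 listed regulators 16 were tested, 7 with negative and 9 with positive values and a median log2 fold change of 0.067. None was past the threshold with edgeR or DESeq2. At an unadjusted p under 0.05 with edgeR none was lower and 2 of the 16 were higher. Over all tested genes 3.75% were lower and 5.39% higher at that p. HIF1A, the main alpha subunit, had 1130, 1046 and 1242 CPM across WT replicates 1, 2 and 3, against 1081, 1153 and 1003 CPM across the same numbers of IRF1-KO. The groups overlapped, and the log2 fold change was −0.078 ± 0.11, turning to 0.0094 without WT replicate 3. EPAS1, the alternative alpha subunit HIF2A, had 131, 109 and 100.2 CPM over the WT pools, against 107, 86.5 and 60.7 CPM over the IRF1-KO pools, with IRF1-KO replicate 3 lowest and a log2 fold change of −0.42 ± 0.21 (adjusted p = 0.616, edgeR quasi-likelihood). ARNT, the shared partner of both, was lower in every IRF1-KO library by a small step, 46.2, 52.1 and 49.3 CPM over the WT pools, against 41.4, 44.8 and 42.4 CPM over the IRF1-KO pools (−0.20 ± 0.11). VHL, the substrate receptor of the ubiquitin ligase, had a log2 fold change of 0.11 ± 0.13. The smallest p was that of ARNT2, an ARNT relative, with 1.09, 1.47 and 0.673 CPM over the WT pools, against 4.02, 1.54 and 5.02 CPM over the IRF1-KO pools. It was higher in every IRF1-KO library, with a log2 fold change of 1.70 ± 0.51 (adjusted p = 0.326, edgeR quasi-likelihood). ELOB, a subunit of the VHL ligase, had a log2 fold change of 0.50 ± 0.18, and CREBBP, a coactivator, had a log2 fold change of 0.25 ± 0.11. HIF3A was below the filter on low counts, with 4, 5 and 5 counts over the WT pools and 1, 3 and 3 over the IRF1-KO pools.

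A second list of 37 hypoxia-induced genes outside the 34 was mixed. It had 26 negative and 11 positive values and a median log2 fold change of −0.15; 7 (18.9%, against 3.75% of all tested genes) were lower and 4 (against 5.39% of all tested genes) higher at an unadjusted p under 0.05 with edgeR, and edgeR called 0 at the adjusted threshold. PLIN2, a lipid droplet coat protein, was higher in every IRF1-KO library, with 58.7, 60.5 and 47.1 CPM over the WT pools, against 100.2, 76.1 and 103 CPM over the IRF1-KO pools and a log2 fold change of 0.75 ± 0.16. Its adjusted p was 0.158 with edgeR quasi-likelihood and 0.00291 with DESeq2, the 1 call of that tool in the list. WSB1 (−0.48 ± 0.15), a ubiquitin ligase adaptor, KDM4C (−0.37 ± 0.12), a histone demethylase, and PGM1 (−0.37 ± 0.12), which links glycogen to glycolysis, had the next smallest p. These and BHLHE40 made up the 4 of 37 (10.8%) with all IRF1-KO values below all WT values, against 6.75% of all tested genes. The reverse held for 3 of the list, PLIN2, STC2 and TFRC, against 8.03% of all tested genes. Between this list and the 34 genes the difference of medians was not tested.

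Core glycolytic enzymes outside the 34 genes, which are HIF targets in part, showed no common direction. Of 14 listed, 13 were tested, 9 with negative values (69.2%, against 53.3% of all tested genes). Their median log2 fold change was −0.034. At an unadjusted p under 0.05 with edgeR, 0 were lower and 2 higher, against 3.75% and 5.39% of all tested genes. ALDOA, the ubiquitous aldolase, was higher, with 55.6, 46.7 and 54.8 CPM over the WT pools, against 80.1, 97.4 and 97.6 CPM over the IRF1-KO pools and a log2 fold change of 0.81 ± 0.13 (adjusted p = 0.0874 with edgeR quasi-likelihood). DESeq2 called it. Of ALDOA's exonic bases, 1657 of 3916 are shared with an overlapping gene on the same strand, so its counts and that call are uncertain. PFKL, the liver-type phosphofructokinase, had a log2 fold change of 0.38 ± 0.12, or 0.12 after the GC correction. PGAM1, a phosphoglycerate mutase, had a log2 fold change of −0.24 ± 0.13, and ENO1, the ubiquitous enolase, one of −0.28 ± 0.16. The median deviation of these 13 genes was 0.15 log2 CPM in WT replicate 1 and −0.16 in WT replicate 2, so WT libraries stood at both ends of the range.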

How the data were processed

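The deposited table holds raw whole-number counts per gene for 6 libraries of poly(A)-selected RNA, in the column layout of featureCounts per the file headers. The submitters' processing notes name featureCounts 0.6.1, edgeR 3.2.2 and GRCh38. For aligner, annotation and strand setting nothing is given in the sources used here, so reads of overlapping genes cannot be told apart. Gene symbols came from a table of current names and GENCODE 29.

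The deposited counts went into edgeR 4.0.16 under R 4.3.3 (filterByExpr, TMM, robust dispersion, quasi-likelihood F test, two-sided, Benjamini-Hochberg over all 13388 tested genes, threshold 0.05). Standard errors are those implied by the F statistic. CPM are TMM-scaled. Named in full were members called by edgeR or DESeq2 and those with the smallest p, 16 in all; in other lists, up to 4 genes with the smallest p and HIF1A, EPAS1, ARNT and VHL. Other members shown per library were chosen after their values were seen. The 34 members and all lists were chosen with earlier results of these data known. The alternatives tried were upper-quartile and RLE factors, a minimum of 5 CPM in 3 libraries and no filter, DESeq2 1.42.0, limma-voom (limma 3.58.1), the replicate number as a block, a GC offset (natural spline, 5 degrees of freedom, on the longest coding transcript), both together, and leaving out each library. The procedure was tested on simulated counts. Replicates of a group differed by chi-square values of 27.0 to 57.6 per degree of freedom, so no library repeated another. The spread behind each p-value is that among these pools, which may be technical. A marker gene of the leukocyte list is not reported here.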

Additional observations from a re-analysis of the deposited data

How the results depend on the processing

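The median log2 fold change of the 34 HIF target genes kept its sign and moved by less than 0.08, the SD of the list's median between libraries of a group, in all 15 alternatives. Leaving out 1 library gave medians from −0.32 to −0.24. The number of genes past the threshold over all genes, 17, was 31 with no filter on low counts, 332 with DESeq2, 31 with the replicate number as a block, 11 with the block and the GC correction together, and 3 to 91 as each library was left out. DESeq2 called 1 HIF target gene, 1 of the other hypoxia-induced genes and 1 glycolytic enzyme where edgeR called 0. The count of 7 lower HIF target genes at an unadjusted p under 0.05 was 2 to 9 with a library left out. The 6 genes lower in every IRF1-KO library became 6 to 14 with a library left out, where fewer libraries have to be separated. The share over all tested genes was not counted for these omissions, so nothing is read from the rise.

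Of 745 values of 50 named genes under an alternative, 14 turned sign. SLC2A1 did so with upper-quartile factors (0.031), the GC correction (0.060) and the GC correction with the block (0.063). With single libraries left out SLC2A1 ranged from −0.054 to 0.076, CA12 from −0.72 to 0.22, KDM3A from −0.39 to 0.10, LOXL2 from −0.040 to 0.40, SLC2A3 from −0.83 to 0.019, MXI1 from −0.29 to 0.040, FAM162A from −0.19 to 0.0074 and HIF1A from −0.14 to 0.0094. NDRG1, PLIN2, ALDOA and IRF1 were past the threshold with DESeq2 only. Same-numbered WT and IRF1-KO libraries had correlations of deviations of −0.015, 0.25 and 0.057. The highest of all pairs was WT replicate 2 with IRF1-KO replicate 2 (0.253), closely followed by WT replicate 3 with IRF1-KO replicate 1 (0.245). These values do not settle whether the numbers pair the samples. With the replicate block no HIF target gene was called at the adjusted threshold. At an unadjusted p under 0.05 with edgeR, the block gave 9 lower members, against 4.2% of all tested genes, and 1 higher. The counts of CA9, ANKRD37, ANGPTL4 and SLC2A3 limit their precision.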
